A study of Mus musculus with 18 samples.

Results

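Cathepsins and legumain are proteases of the lysosome. The genes described here are 10 of the 13759 genes measured in macrophages of mouse liver metastasis (LM), and they were listed by symbol: Ctsa, Ctsb, Ctsc, Ctsd, Ctsh, Ctsk, Ctsl, Ctss, Ctsz and Lgmn. All 10 passed the filter on low counts. The metastasis-associated macrophages (MAMs) came from female C57BL/6J mice, 8 to 10 weeks old, whose livers were analyzed 20 days after MC38 cells, a mouse colon adenocarcinoma line, had been injected into the spleen. MAMs were sorted as lineage-negative CD45+CD11b+ cells with high F4/80 (F4/80high) or low F4/80 (F4/80low), and RNA-seq was performed on 3 libraries of each subset. Both subsets came from mice with metastases and the labels give no drug or genetic change, so the comparison is between subsets of the diseased liver. Whether a macrophage library came from 1 mouse or a pool is not stated in the sources used here. Another 12 libraries of the series hold natural killer (NK) cells and type 1 innate lymphoid cells (ILC1).

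The members are made as inactive precursors, tagged in large part with mannose 6-phosphate, carried to the lysosome and activated there by cleavage at acid pH. Macrophages use them to digest what they engulf and to trim the invariant chain and antigens for class II MHC, and they can release them to act on the matrix. By role, cathepsin D (Ctsd) is an aspartic endopeptidase, cathepsins B, K, L and S (Ctsb, Ctsk, Ctsl, Ctss) are cysteine endopeptidases, and cathepsins C, H and Z (Ctsc, Ctsh, Ctsz) are cysteine proteases that mainly cut from the ends of proteins. Cathepsin A (Ctsa) is a serine carboxypeptidase that also shields other lysosomal enzymes. Legumain (Lgmn) cuts after asparagine, belongs to another clan of cysteine proteases, and processes several cathepsins to their mature chains.

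The 7 papain-like members share the stretch around the cysteine that performs the cut, shown here to let the relatedness of these genes be seen. Each line is the 27 bases of coding sequence around that cysteine in the Ensembl canonical transcript of GENCODE vM39, 5′ to 3′, with the codon of the cysteine in capitals.
Ctsb: tcctgcggctctTGTtgggcatttggg
Ctsc: tcttgtggaagcTGCtactcatttgcc
Ctsh: gcctgtggcagcTGCtggactttctct
Ctsk: cagtgtggttccTGTtgggctttcagc
Ctsl: cagtgcgggtctTGTtgggcgtttagc
Ctss: tcttgtggtgccTGCtgggctttcagt
Ctsz: tactgtggttccTGCtgggcccacggc
The cysteine is codon 108 of Ctsb, 257 of Ctsc, 139 of Ctsh, 139 of Ctsk, 138 of Ctsl, 149 of Ctss and 94 of Ctsz, counted from the start codon. The same search found no such stretch in Ctsa, Ctsd or Lgmn.

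Despite this likeness, the 7 papain-like members shared no run of 31 bases with each other. When each canonical transcript was cut into all runs of 31 bases, Ctsc, Ctsk, Ctss and Ctsz shared none with a transcript of any other gene, and Lgmn, Ctsb, Ctsa and Ctsh shared between 0.0311% and 2.11%, including 8 runs that the canonical transcript of Ctsa shared with another transcript of Ctsz. Ctsl shared 8.83%, mostly with the pseudogene Gm49230. Ctsd shared 37.1% with Gm49369, a protein-coding gene on the same strand whose exons overlap those of Ctsd and which was not analyzed here, so the division of counts between them is uncertain. Exons of Ctsa, Ctsb, Ctsl and Ctsz overlap exons on the opposite strand. The library kit keeps strand, but how the counting used it is not given in the sources used here. On GRCm39 the genes lie on 7 chromosomes, and only Ctsk (chr3:95406178-95416732, plus strand) and Ctss (chr3:95433963-95463717, plus strand) are close neighbors.

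The identity of the sorted cells was checked first. Values are counts scaled to libraries of equal size (CPM), with TMM correction of the library totals for differences in composition. The gene of F4/80, Adgre1, had 901, 806 and 1167 CPM in F4/80high replicates 1, 2 and 3 and 124.5, 160.4 and 153 CPM in F4/80low replicates 1, 2 and 3, and was called higher in F4/80high MAMs (log2 fold change 2.71, edgeR adjusted p = 8.63e-06). Itgam, the gene of CD11b, was not called (log2 fold change 0.11, adjusted p = 0.632). Total counts lay between 21278959 and 32267015 per library. Of 11 macrophage markers 9 were called higher in F4/80high MAMs and none lower, with a summed level of 24100 to 33190 CPM against 8408 to 10760 CPM in F4/80low MAMs. This list holds Adgre1 and Itgam, and the cells were sorted on the products of both, so the call of Adgre1 follows from the sort. Markers of other cells were present in F4/80low MAMs: 7 of 8 dendritic cell markers were higher there (463 to 802 CPM in sum against 13.6 to 20.4 CPM). So were 7 of 8 monocyte markers (2358 to 2747 CPM against 953.5 to 1229 CPM). The other monocyte marker, F13a1, was called higher in F4/80high MAMs (log2 fold change 1.57, edgeR adjusted p = 0.00153). It had 584, 411 and 755 CPM in F4/80high and 151, 173 and 264 CPM in F4/80low replicates 1 to 3, a large part of the F4/80high sum. Of 12 neutrophil markers listed 8 were tested and 7 were higher in F4/80low MAMs, but the list sums overlapped (99.1 to 205 CPM against 74.0 to 105 CPM). Ly6g was among those not analyzed here. Csf3r, the neutrophil marker not called, had 66.8 to 84.1 CPM in F4/80low and 73.3 to 103 CPM in F4/80high MAMs. In F4/80low replicates 1 to 3 Ngp had 51.4, 1.30 and 5.06 CPM, while Mmp8 had 7.16, 6.39 and 17.5 CPM. Only Kit was tested of 5 mast cell and basophil markers, and it was higher in F4/80low MAMs too (47.0 to 77.7 CPM against 1.20 to 1.74 CPM). Of 6 tumor epithelium markers only Cdh1 and Epcam were tested, both also known from dendritic cells, and both were higher in F4/80low MAMs (197 to 281 CPM in sum against 8.30 to 11.8 CPM), while the keratin genes Krt8, Krt18 and Krt19 were not analyzed here. In F4/80high MAMs, 5 of 6 fibroblast markers (261 to 562 CPM against 44.2 to 152 CPM) and 4 of 6 Kupffer cell markers (70.9 to 100.7 CPM against 12.6 to 19.2 CPM) were higher, and the Kupffer cell marker Timd4 was lower. Most of the Kupffer cell sum was Folr2, at 89.6, 55.05 and 94.0 CPM in F4/80high replicates 1 to 3. Cd5l, Vsig4 and Marco were low in these libraries, at 0.681 to 7.19 CPM, and Clec4f was not called (edgeR adjusted p = 0.152). No marker tested was at 0 in all libraries of a subset. The part of these cells in the results was not tested, and in sorted bulk samples fewer cells of a type and less RNA per cell cannot be told apart.

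Lgmn, Ctsd and Ctsb were each about 3 times as high in F4/80high as in F4/80low MAMs, Ctsc was 1.53 times as high, Ctsh was lower, and Ctsk was 58.9 times as high in F4/80low as in F4/80high MAMs. Ctss, Ctsz, Ctsa and Ctsl were not called. Genes were called at an edgeR adjusted p under 0.1 over all 13759 genes. By that rule 4 of the 10 members were higher in F4/80high MAMs, beside 27.8% of all genes, and 2 were lower, beside 27.1% of all genes. The 6 called members stand beside 54.9% of all genes called in either direction, so the number of calls does not set the members apart from other genes, and the results below are about single genes and the size of their differences. The median log2 fold change of the 10 members was 0.41, against 0.01 over all genes. The libraries of the subsets did not overlap for 5 members that were higher in F4/80high MAMs (29.8% of all genes) and for 2 that were lower (28.6% of all genes), beside 58.4% of all genes in either direction.

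**Figure D1:**
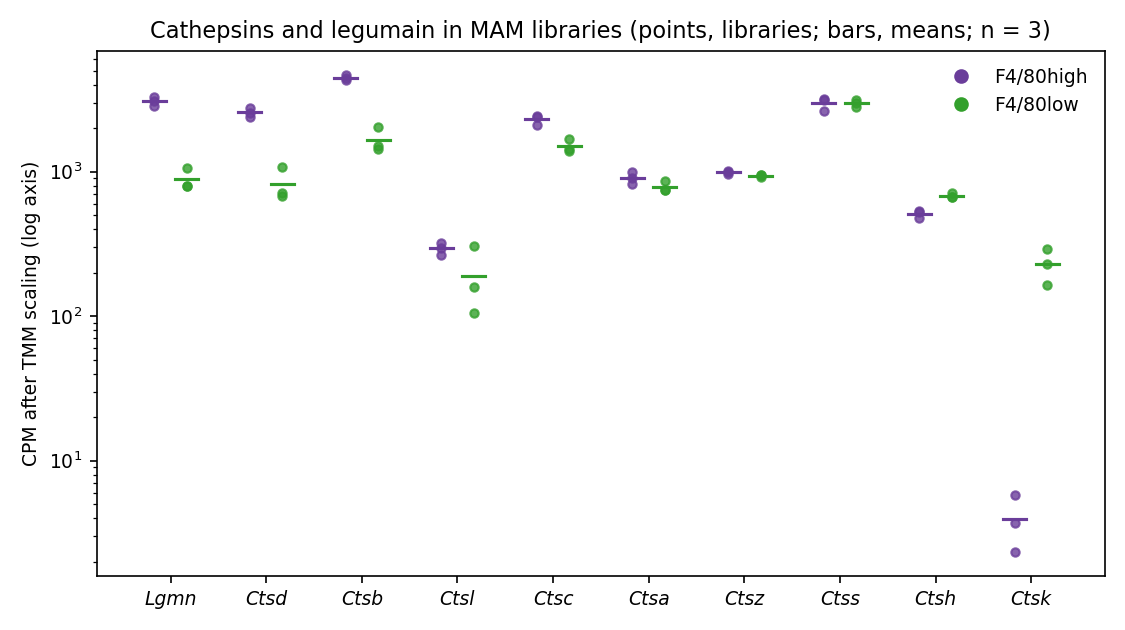
Level of the 10 members in each MAM library, in CPM after TMM scaling on a log axis, with F4/80high libraries in purple, F4/80low libraries in green and the mean of 3 libraries as a bar. Ctsk is the member with the widest gap, between 2.34 and 5.76 CPM in F4/80high and between 164 and 291 CPM in F4/80low libraries, while the points of Ctss lie at the same height in both.

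Ctsd, which starts the breakdown of many proteins in the lysosome, had 2399, 2777 and 2547 CPM in F4/80high replicates 1 to 3 and 675, 714 and 1078 CPM in F4/80low replicates 1 to 3. The subsets did not overlap, and the third F4/80low library was above the other two. The mean was 2574 ± 190.1 CPM (SD, n = 3) against 822 ± 222.5 CPM (SD, n = 3). This is a log2 fold change of 1.65 ± 0.18 (SE), or 3.13-fold, with an edgeR adjusted p of 0.000175 and a 95% interval of 1.23 to 2.06.

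Lgmn had 3275, 2837 and 3079 CPM in the F4/80high libraries and 796, 801 and 1066 CPM in the F4/80low libraries. It had the largest difference among the members that were higher in F4/80high MAMs, at a log2 fold change of 1.79 ± 0.14 (SE), 3.45-fold, with an edgeR adjusted p of 3.02e-05. Its log2 fold change ranked 668 from the highest among all genes.

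Ctsb, an endopeptidase that can also trim dipeptides from the carboxyl end, was the member with the most counts in F4/80high MAMs. Its level was 4424, 4273 and 4691 CPM in the F4/80high libraries and 1435, 1508 and 2033 CPM in the F4/80low libraries. The log2 fold change was 1.43 ± 0.15 (SE), 2.69-fold, with an edgeR adjusted p of 0.000118. Fdft1, whose exons overlap Ctsb on the opposite strand, moved the other way (log2 fold change −0.59, adjusted p = 0.0249) at 18.9 to 38.8 CPM.

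Ctsc, or dipeptidyl peptidase I, removes dipeptides and in this way activates the serine proteases of granules. It had 2384, 2109 and 2409 CPM in the F4/80high libraries and 1428, 1387 and 1692 CPM in the F4/80low libraries. The subsets did not overlap, and the difference was smaller than those of Ctsb, Ctsd and Lgmn, with a log2 fold change of 0.61 ± 0.11 (SE) and an edgeR adjusted p of 0.00254. Ctsh, an aminopeptidase, went the other way. Its level was 533, 476 and 523 CPM in the F4/80high libraries and 713, 669 and 662.5 CPM in the F4/80low libraries, a log2 fold change of −0.42 ± 0.09 (SE) with an edgeR adjusted p of 0.00504. The lowest F4/80low library of Ctsh was above the highest F4/80high library.

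**Figure D2:**
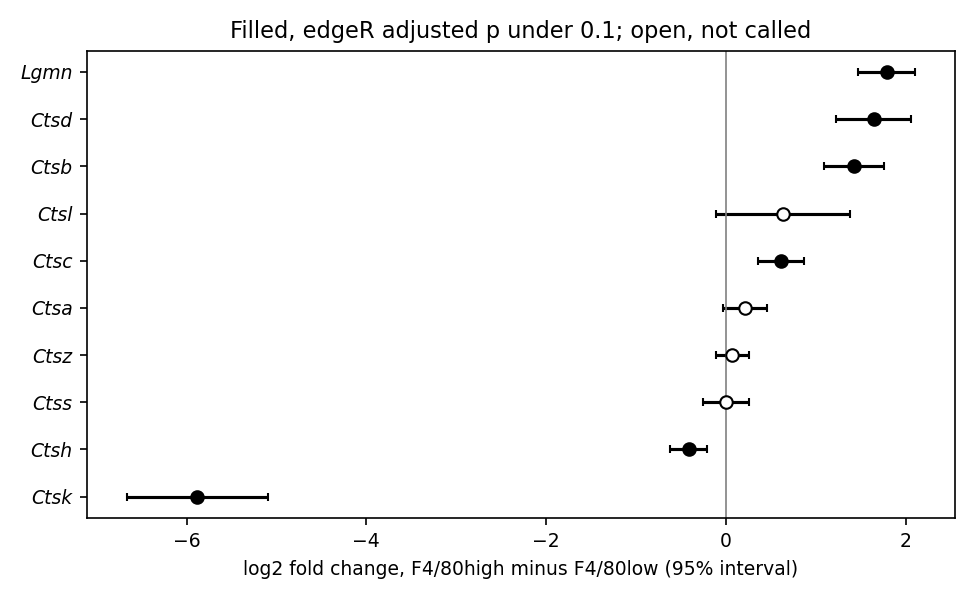
Log2 fold change of each member, F4/80high minus F4/80low, with its 95% interval from the edgeR fit. Filled points passed an adjusted p under 0.1 and open points did not. Lgmn, Ctsd and Ctsb lie between 1.43 and 1.79, and Ctsk lies alone at −5.88.

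Ctsk is the collagen-degrading cathepsin best known from osteoclasts, the bone-resorbing relatives of macrophages. It had 5.76, 2.34 and 3.70 CPM in the F4/80high libraries and 291, 164 and 229.9 CPM in the F4/80low libraries, from at least 66 counts in every library. The log2 fold change was −5.88 ± 0.34 (SE), with a 95% interval of −6.67 to −5.09 and an edgeR adjusted p of 7.19e-06. Its log2 fold change ranked 57 from the lowest among all genes, and 0.858% of all genes were called lower with a difference of at least 5 on the log2 scale. Its neighbor on chromosome 3, Ctss, did not move with it.

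Ctss, which cleaves the invariant chain in antigen-presenting cells and stays active at neutral pH, was abundant in both subsets. Its level was 3169, 2620 and 3148 CPM in the F4/80high libraries and 2986, 2795 and 3126 CPM in the F4/80low libraries. The libraries overlapped, and the log2 fold change was 0.00 with a 95% interval of −0.25 to 0.26 (edgeR adjusted p = 0.975), so a difference of more than 0.26 on the log2 scale lay outside the interval. Ctsz, a carboxypeptidase, had 991.5, 1005 and 961 CPM in the F4/80high libraries and 920.3, 943 and 951.5 CPM in the F4/80low libraries. These did not overlap, but the difference was small and not called, with a log2 fold change of 0.07, a 95% interval of −0.12 to 0.26 and an edgeR adjusted p of 0.504.

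Ctsa and Ctsl were not called by the test as set, and their calls depended on the scaling and on single libraries. Ctsa had 908, 822 and 999 CPM in the F4/80high libraries and 750.4, 749.8 and 858 CPM in the F4/80low libraries, and the libraries overlapped (log2 fold change 0.21, 95% interval −0.03 to 0.46, edgeR adjusted p = 0.141). It was called higher without F4/80high replicate 2 (log2 fold change 0.28, adjusted p = 0.0724) and without F4/80low replicate 3 (0.28, adjusted p = 0.0974). Ctsl, an endopeptidase, had 322, 295.5 and 267 CPM in the F4/80high libraries and 159, 105.5 and 304 CPM in the F4/80low libraries. Here the third F4/80low library stood within the F4/80high range and the other two did not. The log2 fold change was 0.64 with a 95% interval of −0.11 to 1.38 (edgeR adjusted p = 0.143), and without that library it was 1.16 (adjusted p = 0.00191). The third F4/80low library was the highest of its subset for 8 of the 10 members, all but Ctsh and Ctsk. The same count over all genes was not made, so this order is not shown to be particular to the members. The summed markers of macrophages were highest in the third library among F4/80low libraries, at 10760 CPM against 8408 and 8924 CPM. Those of dendritic cells were lowest in it, at 463 CPM against 802 and 624 CPM, and the part of these cells in the members' levels was not tested.

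The members together took 1.92%, 1.86% and 1.92% of all counts in the F4/80high libraries and 0.958%, 0.961% and 1.12% in the F4/80low libraries. The make-up of this share differed. In F4/80high MAMs, 24.7% of the members' counts were of Ctsb, 16.9% of Lgmn, 16.4% of Ctss, 14.3% of Ctsd and 12.7% of Ctsc. In F4/80low MAMs Ctss came first with 28.0%, followed by Ctsb with 15.5%, Ctsc with 14.1% and Ctsz with 8.86%. Ctsk took 0.0216% of the members' counts in F4/80high and 2.15% in F4/80low MAMs.

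For an order of the members by level, CPM were divided by transcript length, as CPM per kilobase of the longest coding transcript. On this scale the order in F4/80high MAMs was Ctsd (1147 ± 84.7, SD, n = 3), Ctsb (883 ± 41.9), Lgmn (785 ± 56.2), Ctss (669 ± 69.8), Ctsc (632 ± 45.8), Ctsh (304 ± 18.3), Ctsz (286 ± 6.45), Ctsa (215 ± 20.9), Ctsl (47.8 ± 4.46) and Ctsk (1.73 ± 0.76). The ranges of 1 SD met between Ctsb and Lgmn, Lgmn and Ctss, Ctss and Ctsc, and Ctsh and Ctsz, so these neighbors were not separated. In F4/80low MAMs the order was Ctss (667 ± 37.3), Ctsc (413 ± 45.4), Ctsh (405 ± 16.2), Ctsd (366 ± 99.1), Ctsb (328 ± 64.6), Ctsz (272 ± 4.70), Lgmn (227.5 ± 39.6), Ctsa (186 ± 14.8), Ctsk (100.2 ± 27.9) and Ctsl (30.8 ± 16.7). Here the ranges met at each step from Ctsc down to Ctsz and between Lgmn and Ctsa. The order depended on the length used: with the canonical transcript of 1366 bases Ctss was also first in F4/80high MAMs, at 2181 ± 228 CPM per kilobase, above Ctsd at 1210 ± 89.4. Other places moved too: by the length of all merged exons, Ctsd was 2nd, Ctsz 3rd, Ctsc 4th and Ctsh 7th in F4/80low MAMs, and Ctss was 3rd in F4/80high MAMs.

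The promoters of the members were searched for short motifs of factors known for lysosomal and macrophage genes. RefSeq windows from 250 bases before to 50 after the start site, on GRCm38.p6, were at hand for 8 members in 10 windows, and not for Ctsb and Ctsh. The letters searched, on both strands, were CACGTG (the E-box), TCACGTGA (the core of the CLEAR element bound by TFEB and its relatives, which holds an E-box), GAGGAAG (a core bound by PU.1, the lineage factor of macrophages) and TGANTCA (AP-1). Over all 32851 windows these were found in 7.15%, 0.974%, 13.6% and 7.81%, and in the members in 4, 2, 3 and 0 of 10 windows. The matches nearest the start site in the members with the motif are shown on the strand of the gene with the motif in capitals.
Ctsd, CLEAR core, chr7:142387908-142387937 (minus): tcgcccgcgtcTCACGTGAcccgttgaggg
Ctsa, CLEAR core, chr2:164833766-164833795 (plus): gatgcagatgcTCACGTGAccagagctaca
Lgmn, E-box, chr12:102439124-102439153 (minus): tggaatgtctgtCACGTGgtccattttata
Ctsl, E-box, chr13:64370739-64370768 (minus): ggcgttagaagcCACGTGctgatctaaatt
Ctsk, PU.1 core, chr3:95499140-95499169 (plus): aaatgtgtgtcCTTCCTCcctaacccctcc
Ctss, PU.1 core, chr3:95526774-95526803 (plus): atgaaagttcaCTTCCTCattgtggatgct
Ctsc, PU.1 core, chr7:88277924-88277953 (plus): tcactaactaaCTTCCTCaggccacctcgt
Ctsd and Lgmn, which were higher in F4/80high MAMs, held an E-box, and so did Ctsa and Ctsl, which were not called. Lgmn and Ctsa each also had a window of another start site without an E-box. The PU.1 core was found in Ctsk, Ctss and Ctsc, which were lower, not called and higher in that order. No E-box was found in the windows of Ctsk, Ctss, Ctsc and Ctsz.

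The genes around the members in their pathway were described from lists written by hand, without a test of the list. Lysosomal gene regulators split, with 4 of 8 called higher in F4/80high MAMs, 2 lower and 2 not called, and a median log2 fold change of 0.10. Tfeb, the transcription factor of the CLEAR element, was lower in F4/80high MAMs, with 40.3, 36.6 and 40.5 CPM against 76.7, 79.7 and 78.9 CPM (log2 fold change −1.003, edgeR adjusted p = 3.21e-05). Its relatives Tfec and Tfe3 were higher (log2 fold change 0.54 and 0.22, adjusted p = 0.0237 and 0.063). Mitf, a further relative, was not called (log2 fold change −0.03, adjusted p = 0.893). The RNA level of Tfeb thus moved opposite to those of Ctsd, Ctsb and Lgmn. The activity of the factor was not measured, and its part in these genes was not tested. Flcn and Lamtor1, which act in nutrient sensing at the lysosome, were also higher, by 0.51 and 0.33 on the log2 scale (adjusted p = 0.00474 and 0.0174).

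Genes of lysosomal delivery and partner proteins moved in both directions, with 6 of 14 called higher, 3 lower and 5 not called, and a median log2 fold change of 0.06. Grn, which encodes progranulin, a lysosomal cofactor, had 3034, 2727 and 2942 CPM in the F4/80high libraries and 1109, 1121 and 1248 CPM in the F4/80low libraries. Its log2 fold change of 1.32 (edgeR adjusted p = 2.41e-05) was near that of Ctsb. Psap, which encodes prosaposin, the precursor of lipid-degrading cofactors, was lower by comparison, at 5263, 4156 and 5091 CPM against 6470, 6301 and 6489 CPM (log2 fold change −0.41, adjusted p = 0.0201). Of the enzymes that form a complex with cathepsin A, Glb1 was called higher (log2 fold change 0.66, adjusted p = 0.000653) and Neu1 was not called (0.17, adjusted p = 0.153). The mannose 6-phosphate route was split. Gnptg and Nagpa were higher (0.56 and 0.305, adjusted p = 0.000691 and 0.0127), and Gnptab and the receptor gene Igf2r were lower (−0.43 and −0.86, adjusted p = 0.00325 and 0.0219). M6pr, the other receptor gene and the more abundant one, was not called (−0.05, adjusted p = 0.686). Its mean was 368 CPM in F4/80high and 380 CPM in F4/80low MAMs, against 20.5 and 37.1 CPM for Igf2r.

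Of the other lysosomal peptidases 10 of 12 were tested, with 5 called higher, 3 lower and 2 not called, and a median log2 fold change of 0.20. Ctsf, a further papain-like cathepsin, had 14.2, 9.14 and 19.6 CPM in the F4/80high libraries and 2.36, 2.15 and 1.77 CPM in the F4/80low libraries (log2 fold change 2.76, edgeR adjusted p = 0.000134). Tpp1, a tripeptidyl peptidase, had 274, 250.5 and 312.5 CPM against 137.5, 134 and 146 CPM (log2 fold change 1.01, adjusted p = 0.000102). Next to Ctsk, the peptidase with the largest difference toward F4/80low MAMs was Napsa, an aspartic protease, with 21.6, 19.6 and 11.1 CPM against 460.1, 447 and 412 CPM (log2 fold change −4.67, adjusted p = 4.18e-06). Of the aspartic proteases, Ctsd and Napsa thus changed in opposite directions, and Ctse was not called (log2 fold change −0.42, adjusted p = 0.137).

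The list of protease inhibitors held cystatins and stefins, which bind papain-like cathepsins, and serpins, several of which are better known for inhibiting serine proteases. Of 14 listed 8 were tested, of which 2 were called higher and 6 lower, with a median log2 fold change of −1.04. Cst3, which encodes cystatin C, the main secreted inhibitor of papain-like cathepsins, had 893.5, 746 and 957 CPM in the F4/80high libraries and 1942, 1615 and 1666 CPM in the F4/80low libraries (log2 fold change −1.01, edgeR adjusted p = 0.000322). Cst7, which encodes cystatin F, an inhibitor that acts inside the endolysosome, had 1.94, 1.38 and 1.43 CPM against 8.47, 7.04 and 6.23 CPM (log2 fold change −2.20, adjusted p = 0.000122). Cstb, a cytosolic inhibitor, was called lower although its libraries overlapped (log2 fold change −0.38, adjusted p = 0.0706). The 2 inhibitors that were higher were the serpins Serpinb6a (log2 fold change 2.19, adjusted p = 0.000161) and Serpinb8 (0.46, adjusted p = 0.0203), while the paralog Serpinb6b had a value of −5.41 (adjusted p = 4.25e-05).

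**Figure D3:**
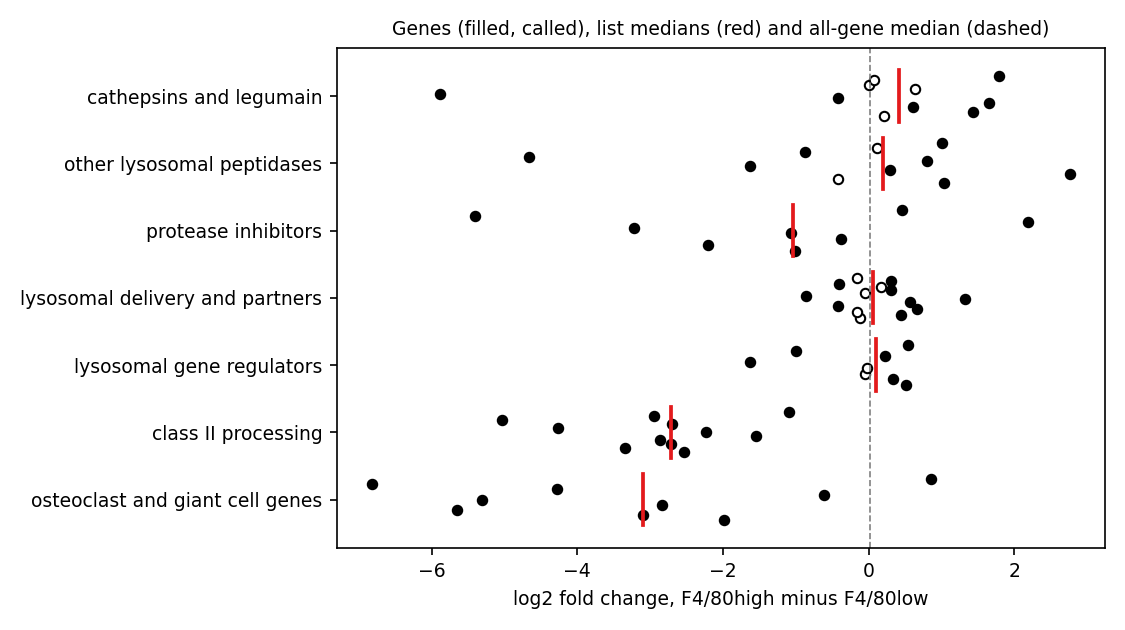
Log2 fold change, F4/80high minus F4/80low, of each gene of the members and of 6 gene lists, with called genes filled, the median of each list as a red line and the median of all genes dashed. The medians of the lysosomal lists lie near 0, those of the protease inhibitors at −1.04, of class II processing at −2.71 and of the osteoclast and giant cell genes at −3.10.

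Substrates and partners of the members in antigen processing were lower in F4/80high MAMs throughout: 11 of 11 class II processing genes were called lower, with a median log2 fold change of −2.71. Cd74, which encodes the invariant chain cut by Ctss, had 4140, 2308 and 2964 CPM in the F4/80high libraries and 20880, 17290 and 16520 CPM in the F4/80low libraries (log2 fold change −2.54, edgeR adjusted p = 5.03e-05). The class II chain gene H2-Ab1 had 1509, 813 and 1015 CPM against 9580, 7576 and 7252 CPM (log2 fold change −2.87, adjusted p = 4.08e-05). Ciita, the master regulator of class II genes, had a value of −3.35 (adjusted p = 4.4e-05). Counts of Ctss thus stood beside a very different amount of counts of the invariant chain in the subsets. The 7 of 8 dendritic cell markers that were lower in F4/80high MAMs moved with this list, among them Flt3, at 2.61, 1.95 and 1.72 CPM in the F4/80high libraries and 132, 115 and 72.3 CPM in the F4/80low libraries. Granule proteases activated by Ctsc were scarce in these cells: 5 of 8 were tested, 4 were called lower and none higher, and they summed to 1.24 to 3.42 CPM in F4/80high and 5.84 to 23.9 CPM in F4/80low MAMs, while Ctsc was higher in F4/80high MAMs. Gzma, at 6.24, 10.9 and 0.692 CPM, and Gzmb, at 6.08, 8.61 and 0.389 CPM in F4/80low replicates 1 to 3, moved with the summed T and NK cell markers of 16.6, 16.1 and 3.59 CPM in these libraries. The 7 of 8 neutrophil markers that were lower in F4/80high MAMs moved in the direction of the list as well, and the part of these cells was not tested.

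Ctsk was not alone among genes known from osteoclasts and fused macrophages. Of 10 listed 9 were tested, of which 8 were called lower in F4/80high MAMs and 1 higher, with a median log2 fold change of −3.10. Mmp9, a gelatinase, had 8.64, 6.84 and 11.1 CPM in the F4/80high libraries and 427, 273 and 358 CPM in the F4/80low libraries (log2 fold change −5.31, edgeR adjusted p = 2.48e-06). Dcstamp, needed for cell fusion, had 0.585, 0.496 and 0.389 CPM against 28.8, 22.4 and 22.0 CPM (log2 fold change −5.65, adjusted p = 1.6e-06). Acp5, the tartrate-resistant acid phosphatase, had 74.3, 67.5 and 65.9 CPM against 311, 235.9 and 272 CPM, a smaller difference (log2 fold change −1.98, adjusted p = 7.5e-06). Tnfrsf11a, which encodes the receptor RANK that drives osteoclast formation, was the exception, with 171, 151 and 190.1 CPM in the F4/80high libraries and 88.2, 96.5 and 97.3 CPM in the F4/80low libraries (log2 fold change 0.86, adjusted p = 0.000259). Dcstamp is also known from dendritic cells, whose summed markers, with 7 of 8 called lower in F4/80high MAMs, were at 802, 624 and 463 CPM in F4/80low replicates 1, 2 and 3. Their part in the level of Ctsk was not tested.

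**Figure D4:**
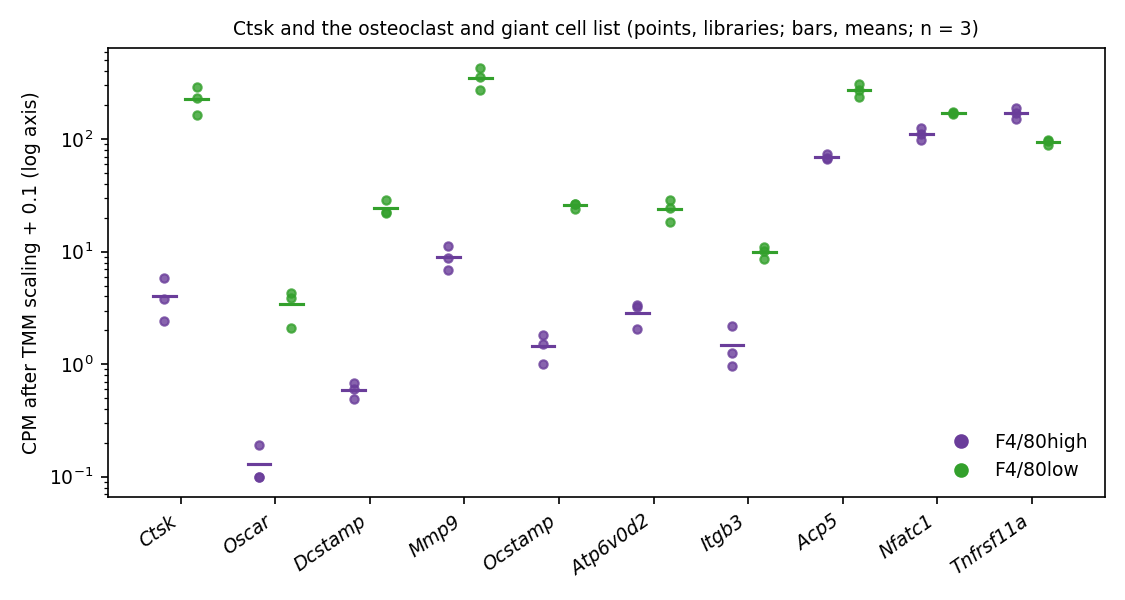
Level of Ctsk and of the 9 osteoclast and giant cell genes tested, in CPM after TMM scaling plus 0.1 on a log axis, with F4/80high libraries in purple, F4/80low libraries in green and the mean of 3 libraries as a bar. All genes but Tnfrsf11a lie higher in F4/80low libraries, and Oscar was at 0 in F4/80high replicates 2 and 3.

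In the lymphocytes the members were measured with another kit and in a separate table, so their levels are given within that table and were not tested against MAMs. LM lymphocytes came from digested metastases and those of metastasis-free liver (MFL) from filtered tissue, in pools of mice, with 3 libraries of each population: NK cells (CD49a-CD49b+) and ILC1 (CD49a+CD49b-) of MFL, and CD49a- and CD49a+CD49b+ NK cells of LM. Ctsd had the most counts of the members in every population, and its lowest mean was that of LM CD49a+ NK cells, at 422 ± 121 CPM (SD, n = 3), and its highest that of MFL NK cells, at 634 ± 172 CPM (SD, n = 3). These ranges overlapped. Ctsb had 105, 116 and 120 CPM in LM CD49a+ NK cells and 114, 118 and 126 CPM in MFL ILC1, above the 51.3 to 84.2 CPM of MFL NK cells and the 48.8 to 76.0 CPM of LM CD49a- NK cells. Ctss was highest in LM CD49a+ NK cells, with 68.5, 68.4 and 55.6 CPM, and lay between 8.43 and 29.0 CPM in the other 9 libraries. In both genes the CD49a+ NK libraries of LM all lay above the CD49a- ones, as was the case for 5.72% of 13594 genes.

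The remaining members in lymphocytes ranged from moderate to undetected. Ctsa lay between 58.1 and 160 CPM, Ctsc between 43.7 and 182 CPM and Ctsz between 6.80 and 31.6 CPM. Ctsl varied widely between libraries, with 2.03, 0 and 14.3 CPM in LM CD49a+ NK cells and 7.80, 0 and 8.19 CPM in LM CD49a- NK cells. Lgmn did not exceed 2.63 CPM. Ctsk had at most 3 counts in any lymphocyte library, and 3 counts, the limit that a count of 0 allows, are 0.22 to 0.334 CPM here. Ctsh was at 0 in 9 of the 12 libraries and had 43 counts in MFL ILC1 replicate 2, the library with the most counts of the macrophage genes Adgre1 (33 counts) and Csf1r (217 counts). The part of other cells in that value was not tested. These limits cover counting error only.

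**Figure D5:**
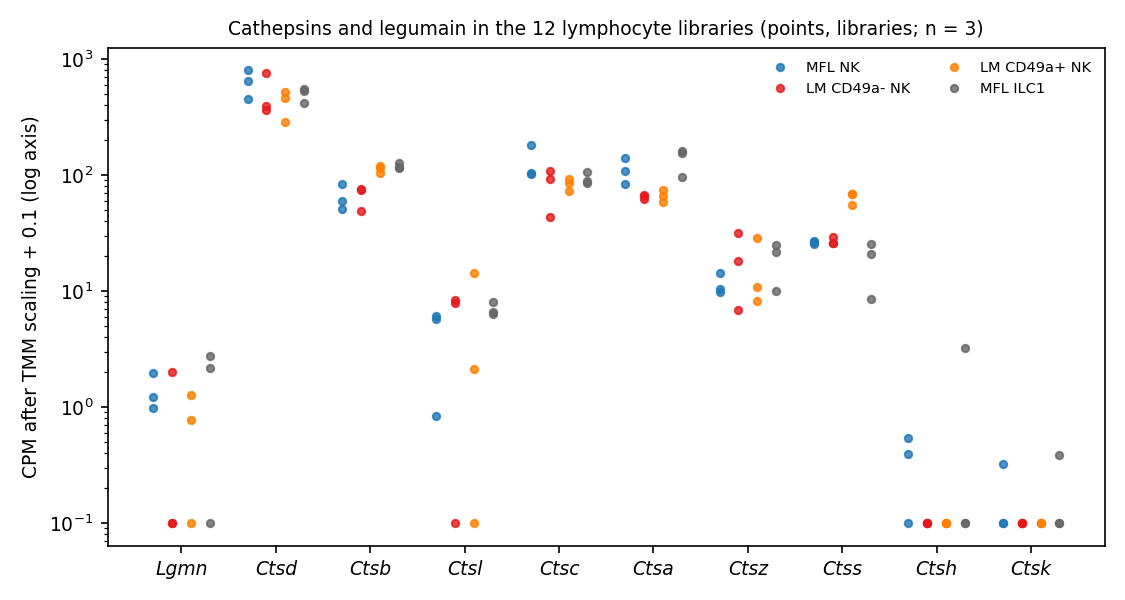
Level of the 10 members in the 12 lymphocyte libraries, in CPM after TMM scaling plus 0.1 on a log axis, with 3 libraries of each population as points in the color of the legend. Ctsd has the most counts in each population, Ctss is highest in LM CD49a+ NK cells at 55.6 to 68.5 CPM, and Ctsh and Ctsk are at or near 0.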

How the data were processed

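MAM libraries were made by the authors with a directional poly(A) kit (Nextflex) and lymphocyte libraries with a stranded total RNA kit (SMARTer). Per the labels, the authors trimmed reads with Trim Galore, counted with Salmon v1.10.0 (MAMs) or v1.5.0 (lymphocytes) on GRCm39 and used R v4.3.1 and DESeq2. What the authors deposited are Salmon's estimated counts, not normalized, as whole numbers for MAMs and rounded here for lymphocytes. The lowest MAM gene total was 37 over 6 libraries, so a filter preceded deposit. Lymphocyte totals lay between 8795721 and 14386834.

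Gene IDs without version were named from GENCODE vM39 (13726 of 13759). MAMs were compared with edgeR v4.0.16 in R v4.3.3 (filterByExpr, which kept every gene, TMM, quasi-likelihood test, no block), with Benjamini-Hochberg adjustment over all genes and calls at an adjusted p under 0.1. SE is the log2 fold change divided by the square root of F. Alternatives were DESeq2 v1.42.0, limma-voom v3.58.1, other scalings and filters, a replicate block and leaving out each library. With 3 against 3 an exact permutation test cannot go below 0.1. No source says that the MAM libraries are separate animals, so p-values measure only the spread between these samples, which may be technical. In counts simulated for this comparison, with 13539 genes tested, 100 genes were changed by 1 on the log2 scale and 100 by 3. Of these, 77% and 96% were called, and 8.95% of calls were unchanged genes. In the data 54.9% of genes were called, a far larger share than was changed in the simulation, so these rates may not carry over. The members and lists were chosen with earlier results of these data known. Of each list, the text names called genes, at most 3 per direction by size and the 2 with the highest mean, and in places further genes of the same route or family. Figures were drawn with matplotlib v3.10.9 (Python v3.11.15).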

Additional observations from a re-analysis of the deposited data

How the results depend on the processing

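The calls of Ctsb, Ctsc, Ctsd, Ctsh, Ctsk and Lgmn kept their direction and their side of the threshold in all 15 alternatives run for single genes, with log2 fold changes of 1.33 to 1.60, 0.56 to 0.76, 1.51 to 1.89, −0.45 to −0.27, −6.23 to −5.61 and 1.71 to 1.94. Scaling by library totals without TMM moved the median of all genes from 0.01 to 0.16. The share of calls that were higher rose from 50.6% to 64.9%. By that scaling 7 of the 10 members were called higher, beside 5205 of 13759 genes. The members added were Ctsa (0.36, adjusted p = 0.0131), Ctsl (0.80, adjusted p = 0.06) and Ctsz (0.22, adjusted p = 0.0551). Upper-quartile scaling moved the median of all genes to 0.10 and called Ctsa (adjusted p = 0.0394) and Ctsl (adjusted p = 0.0917), and limma-voom called Ctsl (adjusted p = 0.0826). Ctss, which had no call under any alternative, changed sign with DESeq2 (−0.0097), RLE scaling (−0.0097) and without F4/80high replicate 1 (−0.0419), F4/80high replicate 3 (−0.0422) or F4/80low replicate 2 (−0.0377), with a range of −0.0422 to 0.0892 over left-out libraries. The members' share of F4/80high counts was 1.97% over nuclear protein-coding genes against 1.90% over all genes. Deviations of libraries with equal replicate numbers correlated at 0.25, 0.01 and 0.03, and not every library correlated best with its own number. With 3 libraries per subset these values cannot decide whether equal numbers share an origin. Summed erythroid markers were highest in replicate 3 of both subsets (42.6 CPM in F4/80high, 100.1 CPM in F4/80low). Summed fibroblast markers were highest in F4/80high replicate 2 (562 CPM) and F4/80low replicate 1 (152 CPM). With a replicate block 7512 genes were called against 7555, and Ctsa (adjusted p = 0.0864) and Ctsl (adjusted p = 0.072) were called. The cause of these changes was not tested. With 3 libraries per subset, the precision of the members rests on the spread between libraries, and Ctsk in F4/80high MAMs rests on the fewest counts.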
